A study of Mus musculus with 9 samples.

Results

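This account is about 10 genes of the circadian clock, chosen by symbol from the 38087 genes of the deposited table, and it follows them through the middle colon of mice with colitis. The 10 genes were *Dbp*, *Tef*, *Hlf*, *Nr1d1*, *Nr1d2*, *Per1*, *Per2*, *Per3*, *Arntl* and *Clock*, and each was listed once. All mice were male C57BL/6, 10 to 12 weeks old, and all drank 2.5% dextran sulfate sodium (DSS), which injures the colonic epithelium. On day 3 the mice of each group were injected intravenously with 1000000 human adipose tissue-derived mesenchymal stem cells (AD-MSC), 1000000 human umbilical cord tissue-derived mesenchymal stem cells (UC-MSC) or phosphate-buffered saline (control), and the colons were taken on day 4. Each group had 3 libraries, 9 in all. The human cells were injected straight after thawing, and the number of human donors is not given in the sources used here. The hour at which the colons of each group were taken is not given either.

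The table held 1 mean per gene and group, made by the authors over the 3 libraries. No spread between mice could be computed, no test was possible, and no p-value is given. Each difference below is therefore a difference between 2 group means with no replicate check. The depth sets a lower limit to the error of such a difference, called here the smallest counting error and given on the log2 scale. The summed raw group means ran from 5.03e+06 reads in UC-MSC to 8.22e+06 in AD-MSC. All 10 genes had reads in all 3 libraries of every group, and all 10 passed the minimum mean of 10 normalized reads in every comparison.

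The mammalian clock is a loop of transcription. The proteins CLOCK and BMAL1 (the product of *Arntl*) bind E-box sequences and switch on the Period and Cryptochrome genes, whose products come back to repress them. The same pair switches on *Nr1d1* and *Nr1d2*, which encode the REV-ERB nuclear receptors, and these repress *Arntl* and *Clock* through RORE sequences. *Dbp*, *Tef* and *Hlf* encode activators of the PAR bZIP family, which carry the rhythm to further genes through D-box sequences. In tissues with a running clock, *Dbp* and *Nr1d1* peak at a time of day when *Arntl* is low. Colon epithelium, smooth muscle and immune cells are all known to hold such clocks.

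The start regions of the members were searched for these 3 sequences, and the stretches with a match are printed because they carry the elements of the loop. RefSeq start windows (GRCm38.p6, 250 bases before and 50 after the start) were found for 9 of the 10 members, in 14 windows, and no entry was matched for *Per2*. The E-box was CACGTG, the D-box was TTATGTAA or TTACGTAA and the RORE core was TAGGTCA or TGGGTCA, each on both strands, and no match overlapped another. Capitals mark the match.
Tef, E-box, chr15:81802493-81802592, plus strand: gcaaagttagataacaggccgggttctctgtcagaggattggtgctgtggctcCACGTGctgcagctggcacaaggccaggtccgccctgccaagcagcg
Per1, E-box, chr11:69098729-69098828, plus strand: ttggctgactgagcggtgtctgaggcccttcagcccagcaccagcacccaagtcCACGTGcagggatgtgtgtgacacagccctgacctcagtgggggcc
Per3, D-box, chr4:151044796-151044895, minus strand: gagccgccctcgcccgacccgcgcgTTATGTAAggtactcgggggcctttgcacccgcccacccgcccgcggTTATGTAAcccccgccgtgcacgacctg
Arntl, RORE core, chr7:113207531-113207560, plus strand: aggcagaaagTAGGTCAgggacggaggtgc
The E-box lay at position -127 from the start in *Tef* and at -166 in *Per1*, and the second *Tef* start had another at -138. *Per3* held the D-box at -205 and again at -158. The match of *Arntl* lay 31 bases into the transcript, in 1 of its 2 windows. Of all 32851 windows of that length, 7.15% held an E-box, 1.06% a D-box and 6.45% a RORE core. None of these letters was found in the windows of *Dbp*, *Hlf*, *Nr1d1*, *Nr1d2* or *Clock*, which says nothing of sites elsewhere.

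In UC-MSC colons the PAR bZIP and REV-ERB genes were higher than in control colons, while *Arntl* and *Clock* were lower. All 5 PAR bZIP and REV-ERB genes were at least 1.5-fold higher, and none of the other 5 members was. Of the 15026 genes in the comparison, 14.4% lay at or above 1.5-fold and 9.88% were lower by as much. At 2-fold, 2 of 10 members were higher and 0 lower, against 5.09% higher and 2.66% lower of all genes. The median log2 difference of the 10 members was 0.62, against -0.02 over all genes.

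**Figure D1:**
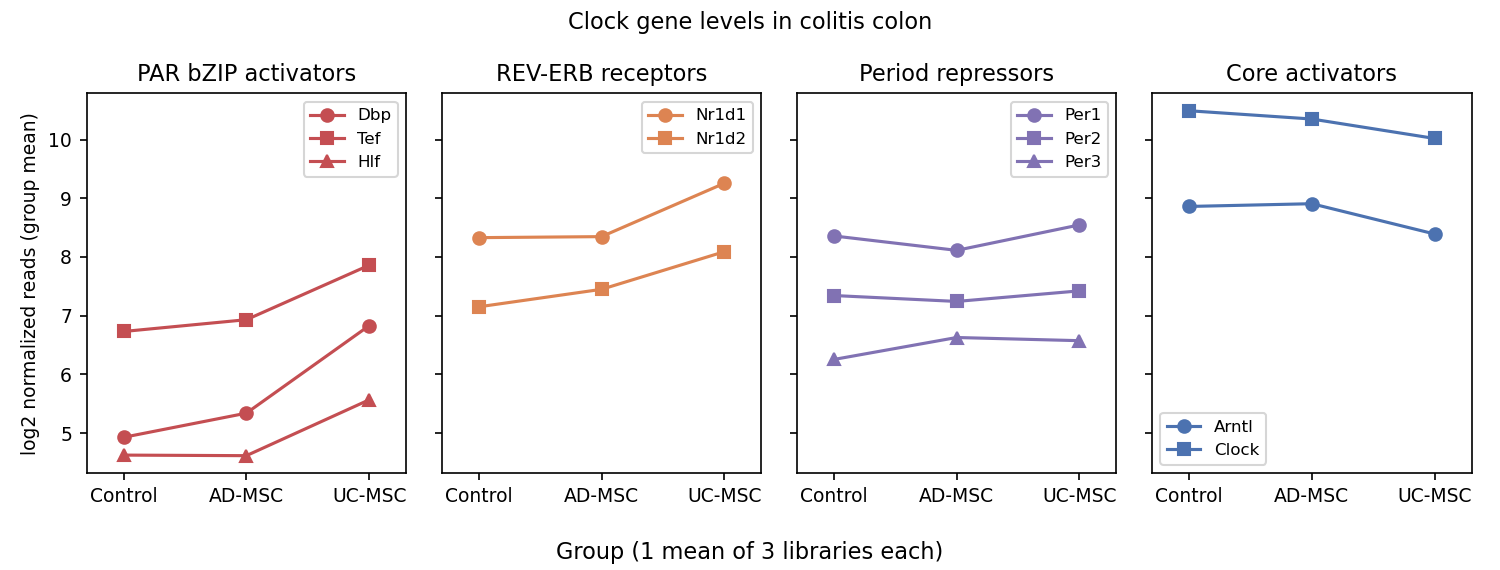
Group means of log2 normalized reads (y axis) of the 10 clock genes in control, AD-MSC and UC-MSC colons (x axis), in 4 panels by role; each point is 1 mean of 3 libraries and lines only join the points of a gene. The 5 PAR bZIP and REV-ERB genes have their highest value in UC-MSC, where *Arntl* and *Clock* have their lowest.

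*Dbp*, a PAR bZIP activator gene driven by CLOCK and BMAL1, differed the most. It lies at chr7:45705088-45710155 on the plus strand (ENSMUSG00000059824, mouse GRCm38/mm10, as are all gene positions here). It had 30.4 normalized reads in control, against 40.5 in AD-MSC and 113.7 in UC-MSC. That last mean was the highest, and control was the lowest. It was 3.74-fold the control mean, a log2 difference of 1.90 with a smallest counting error of 0.17. Of all genes compared, 0.532% had a difference at least as high. In AD-MSC the log2 difference was 0.41, with an error of at least 0.18, and 12.0% of genes were at least as high. The last 689 bases of its span are shared with *Sphk2* on the other strand, which had log2 differences from control of 0.30 in UC-MSC and 0.53 in AD-MSC. The part of reads from the shared bases was not tested.

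*Tef*, the second PAR bZIP gene, stood at a higher read level and differed less. It lies at chr15:81802421-81826861 on the plus strand, with 106.1 normalized reads in control, against 122.0 in AD-MSC and 232.1 in UC-MSC. Its groups stood in the order seen for *Dbp*. UC-MSC was 2.19-fold control, a log2 difference of 1.13 with an error of at least 0.10, and AD-MSC differed from control by 0.20 with an error of at least 0.10. A gene on the other strand that shares 193 bases with it was listed at 0 in every group.

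*Hlf*, the third PAR bZIP gene, had the fewest reads of the 10. It lies at chr11:90336536-90390895 on the minus strand and had 24.7 normalized reads in control, against 24.5 in AD-MSC and 47.4 in UC-MSC. Control and AD-MSC were therefore nearly equal, with a log2 difference of -0.01 that turned to 0.006 when groups were centred on the median gene. UC-MSC was 1.92-fold control, a log2 difference of 0.94 with an error of at least 0.21.

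The REV-ERB receptor genes stood above control by nearly the same amount in UC-MSC, though not in AD-MSC. *Nr1d1* (REV-ERB alpha) lies at chr11:98767932-98775333 on the minus strand and had 321.5 normalized reads in control, against 325.4 in AD-MSC and 610.9 in UC-MSC. UC-MSC was 1.90-fold control, a log2 difference of 0.93 with an error of at least 0.06. AD-MSC differed by 0.02, a value that turned to -0.02 when groups were scaled to equal totals. The gene shares 1075 bases of its span with *Thra* on the other strand. Because the use of strand in counting is not given in the sources used here, reads of the pair could not be told apart there. *Thra* differed from control by 0.24 in UC-MSC and 0.35 in AD-MSC on the log2 scale.

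*Nr1d2* (REV-ERB beta) lies at chr14:18204054-18239127 on the minus strand and overlaps no other gene of the table. It had 142.0 normalized reads in control, against 174.6 in AD-MSC and 272.3 in UC-MSC. UC-MSC was 1.92-fold control, a log2 difference of 0.94 with an error of at least 0.09. In AD-MSC the difference was 0.30 with an error of at least 0.09. The level of *Nr1d1* over *Nr1d2* on the log2 scale was 1.18 in control and 1.17 in UC-MSC, and 0.90 in AD-MSC.

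The Period genes, which encode the repressors that close the loop, differed little from control in UC-MSC, at no more than 1.25-fold. *Per1*, which also answers quickly to hormones and cAMP, lies at chr11:69095217-69109960 on the plus strand. It had 328.0 normalized reads in control, against 276.7 in AD-MSC and 373.7 in UC-MSC. Its log2 differences pointed opposite ways, at -0.25 in AD-MSC with an error of at least 0.06 and 0.19 in UC-MSC with an error of at least 0.07. The UC-MSC value was 0.06 when groups were scaled to equal totals.

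*Per2*, a repressor gene whose loss disturbs the rhythm of mice, lies at chr1:91415984-91459330 on the minus strand. It had 162.3 normalized reads in control, against 151.3 in AD-MSC and 171.5 in UC-MSC. No other member of the 10 had so narrow a range. The log2 difference was -0.10 in AD-MSC and 0.08 in UC-MSC, each near its smallest counting error of 0.09 and 0.10, and the UC-MSC value turned to -0.05 with equal totals.

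*Per3*, the Period gene with the least effect on the rhythm when lost in mice, lies at chr4:151003652-151044665 on the minus strand. It had 76.3 normalized reads in control, against 98.9 in AD-MSC and 95.2 in UC-MSC. Both MSC means were above control and close to each other, by 0.37 in AD-MSC and 0.32 in UC-MSC on the log2 scale, with errors of at least 0.12 and 0.13. The whole gene lies inside *Camta1*, on the same strand, which differed by 0.56 and 0.42, so reads of the pair are uncertain.

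The activator genes went the other way in UC-MSC. *Arntl*, which encodes BMAL1, lies at chr7:113207465-113314122 on the plus strand and had 464.7 normalized reads in control, against 479.9 in AD-MSC and 335.6 in UC-MSC. UC-MSC was 1.38-fold lower than control, a log2 difference of -0.47 with an error of at least 0.06, and 14.3% of all genes were at least as low. AD-MSC lay close to control, with a difference of 0.05 and an error of at least 0.05.

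*Clock*, which encodes the partner of BMAL1, lies at chr5:76212177-76304548 on the minus strand. It had 1438.7 normalized reads in control, against 1304.7 in AD-MSC and 1037.0 in UC-MSC. UC-MSC was 1.39-fold lower than control, a log2 difference of -0.47 with an error of at least 0.04. In AD-MSC the difference was -0.14, with an error of at least 0.03. When groups were scaled to equal totals, *Arntl* and *Clock* also passed 1.5-fold lower in UC-MSC, with log2 differences of -0.60 and -0.61. That scaling moved the median gene by 0.13 downward in UC-MSC against control, and turned the share of higher genes among all 2-fold differences from 65.7% to 47.3%.

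**Figure D2:**
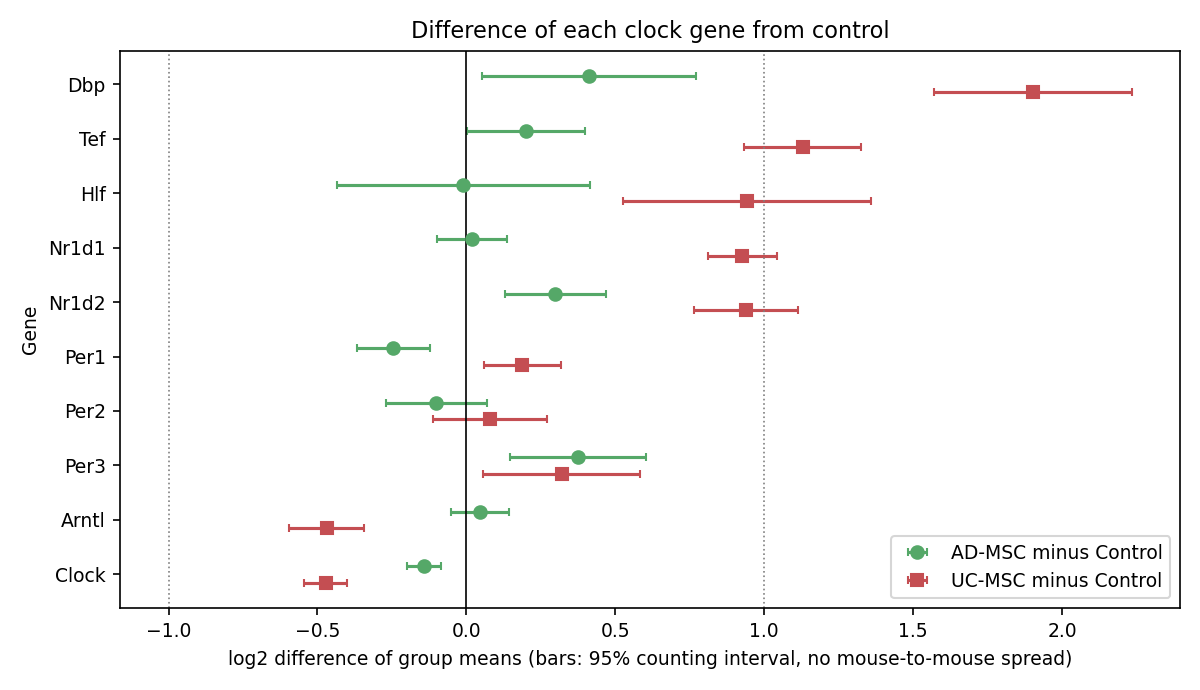
log2 difference of group means (x axis) from control for each clock gene (y axis), circles for AD-MSC and squares for UC-MSC; bars are the smallest 95% counting interval, which leaves out the spread between mice, and dotted lines mark 2-fold. In UC-MSC *Dbp* and *Tef* lie past 2-fold, at 1.90 and 1.13, and *Arntl* and *Clock* lie at -0.47.

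In AD-MSC colons no member reached 1.5-fold in either direction, against 6.57% of 14960 genes that were higher by as much and 6.62% lower. At 2-fold, where 0 members lay, the shares of all genes were 1.69% higher and 2.01% lower. The differences of the 10 members ran from -0.25 in *Per1* to 0.41 in *Dbp*. Of these, 6 were higher and 4 lower, while 48.9% of all genes were higher. The members' median was 0.03, which turned to -0.002 with equal totals, against -0.01 over all genes. The control mean is shared by both comparisons.

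**Figure D3:**
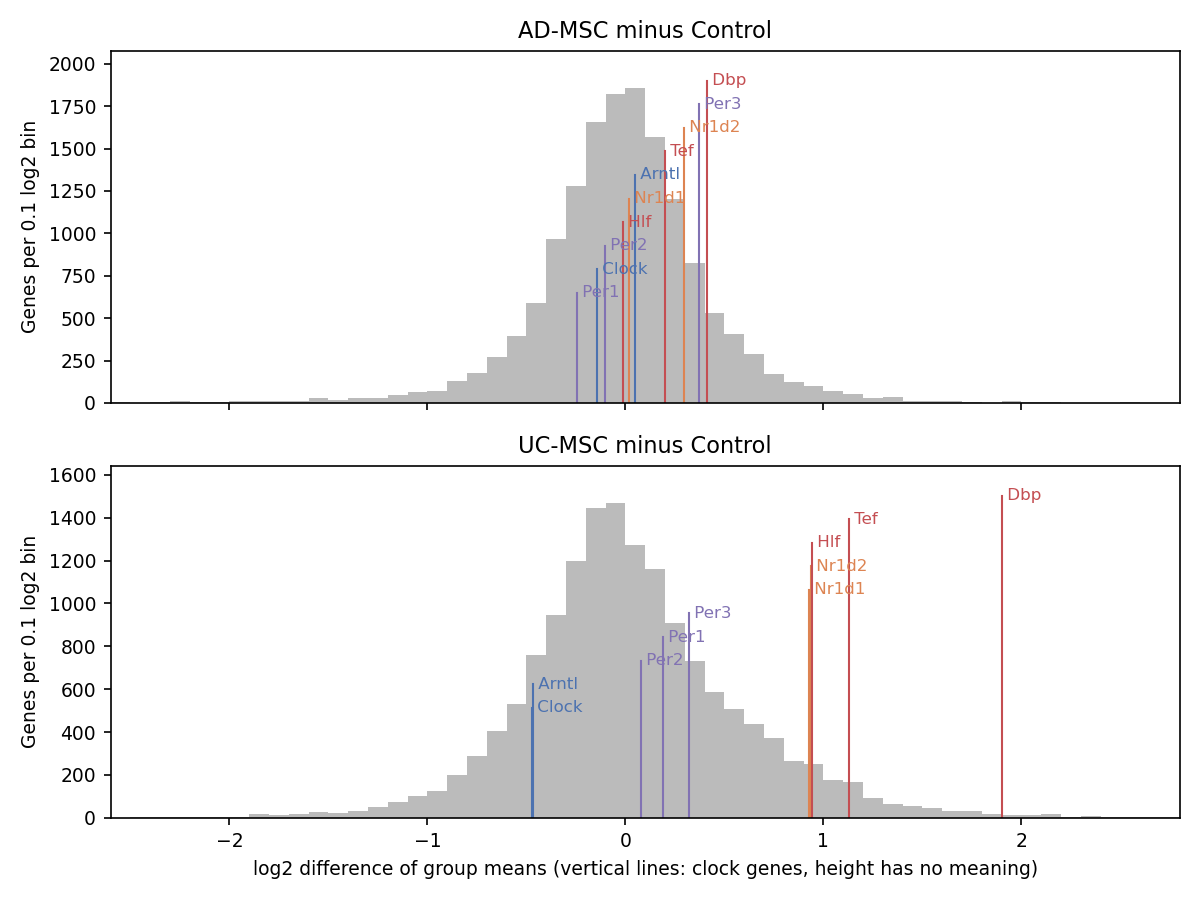
Number of genes (y axis) per 0.1 bin of the log2 difference from control (x axis) in AD-MSC (top) and UC-MSC (bottom), in grey, for genes past the minimum mean of 10; vertical lines mark the 10 clock genes, their heights have no meaning, and the axis leaves out the furthest genes. In AD-MSC the members lie between -0.25 and 0.41, and in UC-MSC *Dbp* lies at 1.90.

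Set directly against each other, the MSC groups differed in the same 5 genes. With UC-MSC, *Dbp* stood 2.81-fold above its AD-MSC mean, *Hlf* 1.93-fold, *Tef* 1.90-fold, *Nr1d1* 1.88-fold and *Nr1d2* 1.56-fold. These 5 passed 1.5-fold, against 12.3% of 15074 genes, and *Nr1d2* no longer did so with equal totals. At 2-fold 1 member was higher and 0 lower, against 4.5% and 2.3% of all genes. *Arntl* was 1.43-fold lower, and past 1.5-fold with equal totals, and *Clock* 1.26-fold lower, while 7.5% of genes were at least 1.5-fold lower. *Per1* was 1.35-fold higher, whereas *Per2* and *Per3* had log2 differences of 0.18 and -0.05.

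Ratios between genes of the same group do not depend on how the groups were scaled. The log2 ratio of *Dbp* to *Arntl* was -3.93 in control, against -3.57 in AD-MSC and -1.56 in UC-MSC, so that the ratio was 5.18-fold that of control in UC-MSC, with an error of at least 0.18 on the log2 scale. The ratio of *Tef* to *Arntl* was 3.03-fold that of control in UC-MSC, and those of *Hlf*, *Nr1d1* and *Nr1d2* were between 2.63-fold and 2.66-fold. *Nr1d1* lay below *Arntl* in control, with a log2 ratio of -0.53, and above it in UC-MSC, with 0.86. The Period genes had ratios to *Arntl* between 1.46-fold and 1.73-fold those of control. The ratio of *Clock* to *Arntl* was 1.630 in control and 1.627 in UC-MSC on the log2 scale, so these partners were lower to the same degree.

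**Figure D4:**
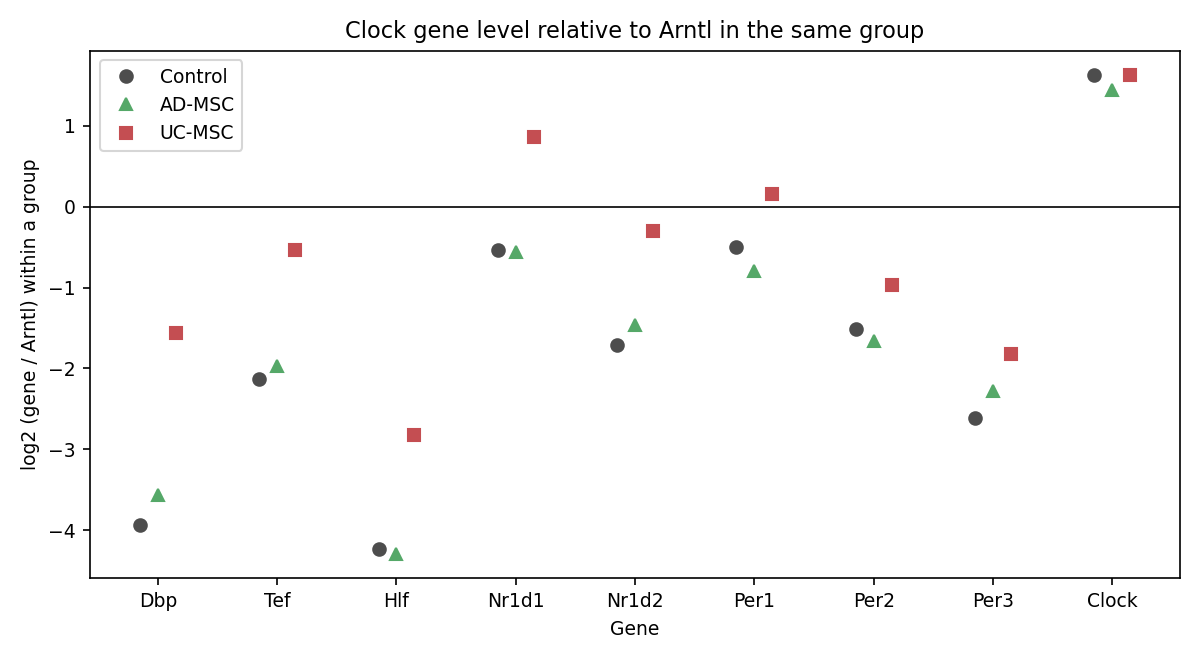
log2 ratio (y axis) of each clock gene (x axis) to *Arntl* within the same group, with 1 point each for control (circle), AD-MSC (triangle) and UC-MSC (square). For *Dbp* the ratio goes from -3.93 in control to -1.56 in UC-MSC, whereas for *Clock* it is 1.63 in both.

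Levels of different genes were compared as normalized reads per kilobase of merged exons. In control *Clock* and *Nr1d1* stood highest, at 104.8 and 104.5 per kilobase, which do not differ beyond their counting errors of 1.43% and 3.01%. *Arntl* and *Per1* followed at 61.8 and 58.2, then *Per2* and *Nr1d2* at 27.7 and 26.3, and the members of each of these pairs lay within the 95% counting interval of their difference. *Tef* had 13.5, *Dbp* 10.2, *Per3* 7.94 and *Hlf* 3.69. In AD-MSC the order was the same but for *Nr1d1* with *Clock* and *Nr1d2* with *Per2*, which changed places. In UC-MSC *Nr1d1* stood alone at the top with 198.5, and *Clock* had 75.5. *Dbp*, with 38.0 per kilobase, had moved from the eighth to the sixth place, just below *Arntl* with 44.6, and *Tef* and *Per2* were level at 29.5 and 29.3. *Hlf* was lowest in every group.

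The other core clock genes were read from a list of 11, of which 10 passed the minimum mean against control. In UC-MSC 2 were at least 1.5-fold higher (*Cry2* and *Rora*) and 2 at least 1.5-fold lower (*Cry1* and *Rorb*), beside 14.4% and 9.88% of all genes, and the median was 0.21, against -0.02 over all genes. *Cry2*, a Cryptochrome repressor gene, had 83.1 normalized reads in control, against 122.6 in AD-MSC and 163.2 in UC-MSC, 1.97-fold control. *Cry1*, the other Cryptochrome gene, had 138.6, 137.5 and 87.4, which was 1.58-fold lower than control in UC-MSC. The Cryptochrome pair thus parted, *Cry1* with *Arntl* and *Cry2* with the REV-ERB genes. *Npas2*, which can stand in for *Clock*, differed by -0.21 on the log2 scale. *Rora*, an activator that competes with REV-ERB at ROREs, was 1.68-fold higher in UC-MSC, and its relative *Rorb* was 2.09-fold lower. *Ciart*, a further repressor gene, had only 5.57 normalized reads in control, with 11.3 in UC-MSC, and missed the minimum. Its start window held the E-box 3 times, at -116, -58 and -44, beside *Bhlhe41* and *Cry1* as the other genes of the list with one.
Ciart, E-box, chr3:95882259-95882358, minus strand: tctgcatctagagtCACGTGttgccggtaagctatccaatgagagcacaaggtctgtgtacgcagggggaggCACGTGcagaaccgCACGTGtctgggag
In AD-MSC 0 of these 10 genes were at least 1.5-fold higher and 1, *Rorb*, was at least 1.5-fold lower, beside 6.57% and 6.62% of all genes.

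Genes that act on clock proteins, and known rhythmic output genes, were read from lists of their own. Of 11 kinase, ubiquitin ligase and cofactor genes, 10 passed the minimum mean, and 1 was at least 1.5-fold higher in UC-MSC, *Timeless*, by 1.70-fold, with 0 lower by as much and a median log2 difference of 0.07. In AD-MSC 8 of these 10 were above control, beside 48.9% of all genes, with a median of 0.21. Only *Usp2*, 1 of the 10, was at least 1.5-fold higher there, beside 6.57% of all genes. The casein kinase gene *Csnk1e*, whose product marks PER proteins for decay, was 1.46-fold higher in UC-MSC and 1.14-fold higher in AD-MSC. *Usp2*, a deubiquitinase gene under clock control, is also in the list of output genes. It was higher in AD-MSC, by 0.68 on the log2 scale, and differed by 0.25 in UC-MSC. Of 10 output genes, 1 was at least 1.5-fold higher in UC-MSC, *Tspan4*, by 1.89-fold, and the median was 0.22. A count of 1 in 10 in either list lies below the 14.4% of all genes that were higher by as much. *Alas1*, the first enzyme gene of haem synthesis, was 1.37-fold lower in UC-MSC and 1.29-fold lower in AD-MSC.

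Markers of stromal cells, and most of those of macrophages and neutrophils, were higher in UC-MSC than in control, as were the PAR bZIP and REV-ERB genes. All 5 B cell markers were lower there, with a median log2 difference of -1.15. In bulk tissue, fewer cells of a type and less RNA per cell cannot be told apart. All 5 fibroblast markers were higher than in control, with summed normalized reads of 6920 in control, against 8001 in AD-MSC and 15335 in UC-MSC. All 6 smooth muscle markers were higher, with sums of 64319 in control, against 74137 in AD-MSC and 100958 in UC-MSC, as were all 4 endothelial markers, with a median log2 difference of 0.86, and all 6 enteric neuron and glia markers, with a median of 0.84. Macrophage markers were higher for 4 of 5 genes, with a median of 0.97, and neutrophil sums were 32.3 in control, against 26.1 in AD-MSC and 102.5 in UC-MSC. All 8 colonocyte markers, which define the tissue, were abundant in every group, with sums from 55782 to 60196. In UC-MSC they ran from -0.61 (*Aqp8*) to 0.71 (*Krt20*) on the log2 scale, with 2 at least 1.5-fold higher, 1 lower by as much and a median of 0.08. Adipocyte, mesothelium and B cell markers were lower in both MSC groups. Adipocyte markers were lower for 5 of 5 in each, with sums of 774.2 in control, against 345.7 in AD-MSC and 306.6 in UC-MSC. Mesothelium sums were 111.9, 52.8 and 28.9 in the same order, and B cell sums were 162.0, 18.7 and 71.4, lowest in AD-MSC. Of 6 T cell markers, 1 passed the minimum mean in UC-MSC against control, *Cd4*, which was 1.64-fold higher. In AD-MSC against control 5 passed, 3 higher and 2 lower, with a median log2 difference of 0.02. The part of these markers in the clock gene differences was not tested.

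A single UC-MSC library stood apart by reads of *Pnlip* and *Prss2*, which are pancreatic enzyme genes. The reads of both fitted 1 library of UC-MSC, and both gave it the same size factor of 0.538. In it *Pnlip* had 3113 raw reads and *Prss2* 1272. Their UC-MSC group means were only 18.0 and 13.3 normalized reads, because log2 values were averaged over 3 libraries. *Ctrb1* and *Cel*, also pancreatic markers, had reads in all 3 UC-MSC libraries, with group means of 40.0 and 23.7 normalized reads. By group means, the 5 pancreatic markers summed to 6.45 normalized reads in control, with 3 of them listed at 0, 6.32 in AD-MSC, with 2 at 0, and 110.6 in UC-MSC. The UC-MSC sum understates the reads of the single library. With 1 mean per group, the clock genes could not be computed without this library, and its part in their values was not tested.

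The genes nearest to *Dbp* in their pair of differences from control were taken from 9684 named protein-coding genes whose mean reached 50 normalized reads. *Grem1*, *Gfap*, *Lox*, *Ccr2* and *Igfbp5* lay within 0.25 of it on the log2 plane of both differences, and no other gene did. *Grem1* was nearest, with 0.37 in AD-MSC and 1.93 in UC-MSC. Around the median pair of the 10 members, 0.03 and 0.62, 576 of 9676 genes lay within the same distance, of which *Podn*, *Lrrc8c*, *Tgfb1i1*, *Cnn1* and *Rassf8* were nearest. The likeness rests on 3 group means, and both differences share the control mean.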

How the data were processed

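Total RNA of the middle colon was made into SMARTer Stranded Total RNA-Seq Pico libraries, and samples with an RNA integrity number under 7 had been left out. Reads of 50 bases, single-end, were mapped to mouse GRCm38/mm10 and handled in Strand NGS. The submitters' processing notes name bcl2fastq 1.8.4 and DESeq. Neither aligner nor strand setting is stated in the sources used here. The deposited log2 values were the authors' means, over 3 libraries, of log2 reads divided by a size factor. The deposited raw signal was handled as the authors' geometric mean of reads per gene over the libraries with reads. It was used here for counting errors and the check for reads in every library. Its sum over genes is only a rough guide to depth. Columns of 0 further samples were left out.

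Python 3.11.15, numpy 2.4.6 and pandas 2.3.3 were used. Log2 group means were subtracted in 3 comparisons, over genes whose mean reached 10 normalized reads (2 to the power of the log2 value) in the groups compared. The smallest counting error was the root of 1/(3 × raw mean) summed over both groups, on the log2 scale. It covers counting error only. A gene counted as having reads in all 3 libraries when log2 raw minus log2 normalized lay within 0.002 of the constant of its group. Exon lengths came from GENCODE M21 and start windows from RefSeq. The bases after the start lay in a GENCODE transcript of the same gene, and in its direction, for 12 of 14 member windows. *Ciart* was listed under an older symbol. The steps were tested on simulated data.

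The 10 members and all lists were chosen with earlier results of these data known, so they are not independent of them. By the rule for named genes, all 10 members were named and any gene of the 5 further clock, glucocorticoid and immediate early lists could be. Which of those were named, and the marker genes named, was settled after their values were seen. The values of 1 listed gene are not reported here. Alternatives were equal totals of normalized reads, centring on the median gene with a mean of at least 50, a pseudocount of 10, no filter or a minimum of 50, a 1.5-fold threshold and, added after the data were seen, members that overlap no other gene.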

Additional observations from a re-analysis of the deposited data

How the results depend on the processing

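The number of members at least 2-fold higher in UC-MSC than in control was 2, and it was 5 at 1.5-fold, 1 with equal totals of normalized reads and 0 among members that overlap no other gene of the table, a setting chosen after the data were seen that leaves out *Dbp*, *Tef*, *Nr1d1* and *Per3*. For UC-MSC against AD-MSC the number was 1, then 5 at 1.5-fold and 0 among members without overlap. In AD-MSC against control it was 0 in every setting, 1.5-fold included. Equal totals lower every gene of a comparison by 1 constant, which was 0.13 on the log2 scale for UC-MSC against control, 0.10 for UC-MSC against AD-MSC and 0.03 for AD-MSC against control. The members' median in UC-MSC against control ran from 0.49 with equal totals to 0.66 centred on the median gene. No paired analysis was possible because the table gives 1 mean per group and no value of a single library, and for the same reason no replicate could be left out in turn.

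With 1 mean per group the spread between mice is unknown. The hour of collection is not given for any group, and its part in the clock gene differences was not tested. The depth limits *Hlf* and *Dbp* most, with raw means from 28.1 and 34.7 reads per library in control.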

Other observations

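All 10 immediate early genes, which answer cAMP and growth signals, were below control in AD-MSC, 5 of them by at least 1.5-fold, beside 6.62% of all genes. Of all genes, 48.9% were above control there. The median log2 difference of the 10 was -0.61, beside -0.25 for *Per1*. The 5 were *Fosb*, *Egr2*, *Egr1*, *Atf3* and *Ier2*, with log2 differences of -1.58, -0.997, -0.89, -0.75 and -0.64. In the same group 5 of 5 B cell markers were at least 2-fold lower, with a median of -3.21, as were 4 of 5 adipocyte markers, with a median over the 5 of -1.63, and their part in these differences was not tested. *Fosb*, a subunit gene of the AP-1 factor, had 132.5 normalized reads in control, against 44.4 in AD-MSC and 164.8 in UC-MSC. In UC-MSC 6 of the 10 were higher and 4 lower, while 48.3% of all genes were higher. None passed 1.5-fold, beside 14.4% of all genes higher and 9.88% lower by as much, and the median was 0.04. Between the MSC groups, 3 of the 11 other core clock genes were at least 1.5-fold higher in UC-MSC, beside 12.3% of all genes. They were *Bhlhe40*, *Bhlhe41* and *Rora*, by 0.72, 0.85 and 0.66 on the log2 scale. Lower by as much was 1, *Cry1*, with -0.65, beside 7.5% of all genes. Against control, the clock repressor genes *Bhlhe40* and *Bhlhe41* differed by -0.51 and -0.54 in AD-MSC. In UC-MSC they differed from control by 0.22 and 0.31. Of 10 glucocorticoid-induced genes, *Per1* among them, *Sgk1* was at least 1.5-fold higher in AD-MSC, beside 6.57% of all genes. Its log2 difference was 0.77. *Errfi1* was at least 1.5-fold lower, with -1.10, beside 6.62% of all genes. In UC-MSC 0 of these 10 reached 1.5-fold, beside the same 14.4% and 9.88% of all genes, and the median was 0.11. The lists share *Dusp1*, and the differences have no replicate check.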
